A study of Mus musculus with 108 samples.

Results

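The genes described here are those of oxidative phosphorylation that the count table holds under the usual symbols of the subunits, 84 encoded in the nucleus and 13 in mitochondrial DNA, 97 of 53465 rows in all. They were taken by symbol from the protein-coding rows, as genes starting with Nduf and a subunit letter, Cox4 to Cox8, Uqcr or Atp5, the 4 Sdh genes, and the mt-Nd, mt-Co, mt-Atp and mt-Cytb genes. By complex, 37 nuclear and 7 mitochondrial genes belong to complex I, 4 nuclear genes to complex II, 8 nuclear genes and 1 mitochondrial gene to complex III, 18 and 3 to complex IV, and 17 and 2 to complex V. The rule misses Ndufab1 and Cyc1, which encode further subunits, and it takes in Atp5s, a coupling factor that is not a structural subunit of the synthase, and Ndufa4, which is nowadays placed in complex IV. RNA came from the cerebellum (CB), the cortex (CX) and the hippocampus (HIP) at E17.5, P7 and P35. The mice were labelled C56Bl/6N, a strain that the paper writes as C57BL/6N. They were WT mice and Cul3+/- mice, whose Cul3 gene carries a frameshift insertion made by CRISPR/Cas9 in a line that goes back to 1 founder. Each group of period, region and genotype held 6 mice, or 5 at P35 after 1 mouse of each label was left out because the sources disagree on its genotype. The 3 regions of a period came from the same mice, and different mice were used at each period.

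Oxidative phosphorylation passes electrons from NADH and succinate along complexes I, II, III and IV of the inner mitochondrial membrane to oxygen, and complex V, the ATP synthase, uses the proton gradient so made to form ATP. Subunits of complexes I, III, IV and V come from both genomes, whereas complex II is wholly nuclear. The nuclear genes have separate promoters, while the mitochondrial ones are cut from long transcripts of both strands of one circular DNA, so that the pair of genomes has to be read together, and brain tissue is known for its high demand on this pathway.

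Library totals ran from 15126113 to 44411282 counts. Cul3, the targeted gene, did not overlap between genotypes in any of the 9 pairs of groups (108 to 119 CPM in Cul3+/- and 186.1 to 201.1 CPM in WT mice in CX at E17.5). The region labels were matched by their markers. A list of 6 forebrain genes summed to between 1027 and 1625 CPM in WT CX at E17.5 and to between 36.69 and 41.99 CPM in CB, and 7 genes of cerebellar granule neurons summed to between 4339 and 4869 CPM in CB at P35 and to between 32.37 and 37.29 CPM in CX. The summed level of 6 choroid plexus markers differed widely within groups, from 13.94 to 4724 CPM in WT HIP at E17.5. Levels are given as CPM, each gene's counts relative to a library size that was normalized by the TMM method.

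The summed levels of the nuclear and the mitochondrial genes both rose with age, and the mitochondrial ones gained more between P7 and P35. As a percentage of all counts of a library, the nuclear members changed less from P7 to P35. The means in WT mice were 0.80 and 0.85 in CX, 0.88 and 0.91 in HIP, and 1.025 and 1.029 in CB. In WT CX the nuclear members summed to between 5551 and 6754 CPM at E17.5 (median 6034), between 6332 and 8705 CPM at P7 (median 8154), and between 8995 and 10520 CPM at P35 (median 9481). The mitochondrial members summed to between 5863 and 6894 CPM (median 6428), between 8094 and 11710 CPM (median 10620), and between 19360 and 24180 CPM (median 20510) at the same periods. The mitochondrial sum did not overlap between any of these periods, while the lowest nuclear sum at P7 lay within the range at E17.5. In HIP the medians at the 3 periods were 5951, 8871 and 10670 CPM for the nuclear and 7018, 12670 and 23220 CPM for the mitochondrial members. In CB they were 7160, 9496 and 11670 CPM for the nuclear and 6559, 7810 and 17390 CPM for the mitochondrial members. In bulk tissue, fewer cells of a type and less RNA per cell cannot be told apart.

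The log2 ratio of the mitochondrial to the nuclear sum does not depend on the scaling between libraries. It was 0.08 ± 0.14 (SD, n = 6) in WT CX at E17.5, 0.34 ± 0.30 (SD, n = 6) at P7 and 1.1 ± 0.16 (SD, n = 5) at P35. In HIP it was 0.30 ± 0.25, 0.41 ± 0.26 and 1.19 ± 0.09, and in CB −0.09 ± 0.14, −0.30 ± 0.21 and 0.70 ± 0.31 (SD, n as in CX). The E17.5 and P7 libraries overlapped in each region, and the P35 libraries lay above all P7 libraries of their region in each region. Without mt-Co1, which had the most counts of the mitochondrial members, the P7 and P35 libraries of CX overlapped. Their difference was then 0.396 in place of 0.797. Those of HIP and CB still did not overlap. The ratio in Cul3+/- mice at P35 was 1.02 ± 0.17 in CX, 1.1 ± 0.09 in HIP and 0.48 ± 0.14 in CB (SD, n = 5). A score over the members was given no test.

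**Figure D1:**
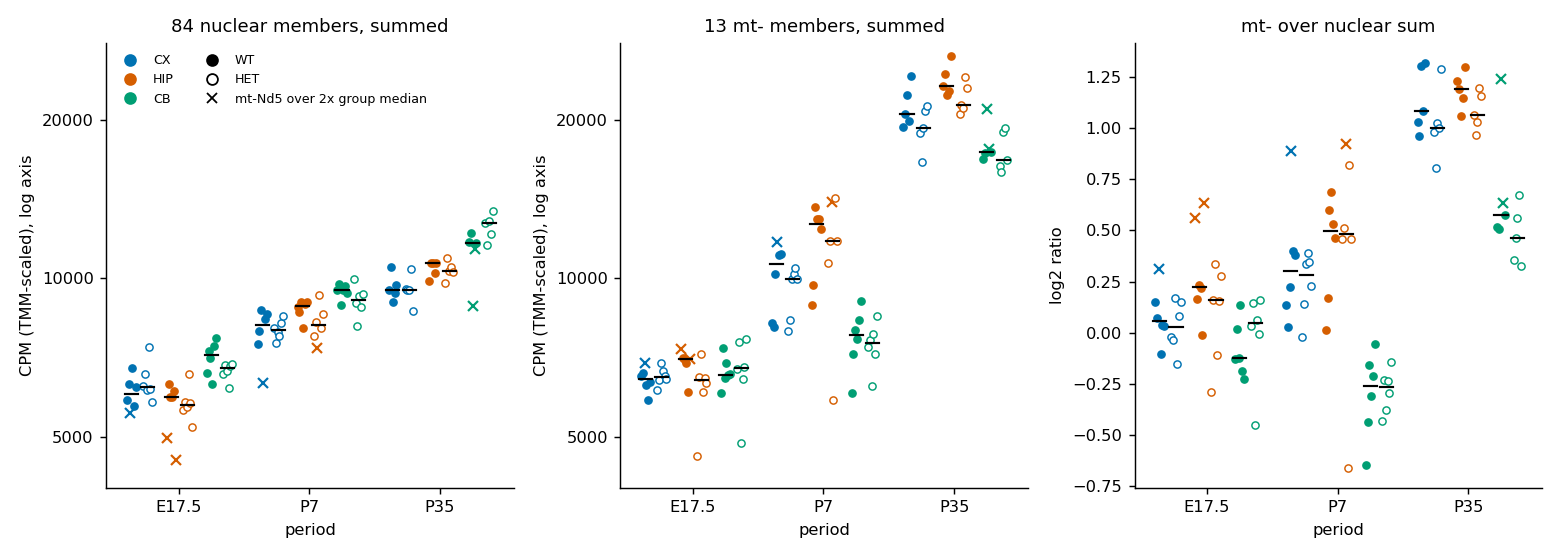
Summed CPM of the 84 nuclear members and of the 13 mitochondrial members (log axes) and the log2 ratio of the 2 sums, 1 point per library, by period, region (colour) and genotype (filled for WT, open for Cul3+/-), with a bar at each group's median and a cross on the 7 libraries whose mt-Nd5 level was over 2 times the median of their group. The mitochondrial sum of WT CX has medians of 6428, 10620 and 20510 CPM at the 3 periods and the nuclear sum 6034, 8154 and 9481 CPM, and the ratio is highest at P35.

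A share of the mitochondrial counts stood in other rows of the table. The nuclear genome of the mouse holds copies of mitochondrial DNA, and 9 annotated copies were at least 95% identical to a mitochondrial gene over 100 bases or more. Gm28661, on the minus strand at chr1:24614885-24615565 (GRCm38), matches mt-Co2 over 681 bases without a mismatch and received 78.0% of the counts of the pair, a mean of 51270 per library against 14440 for mt-Co2. Gm10925 held 54.1% of the counts of mt-Atp6 and its copy, Gm28437 held 45.9% for mt-Co3, Gm10222 held 61.7% for mt-Nd4l, and Gm29216, with 6 mismatches in 492 bases, held 10.4% for mt-Co1. Reads of identical sequences cannot be told apart, so the levels of mt-Co2, mt-Co3, mt-Atp6, mt-Nd3 and mt-Nd4l depend on how the authors' counting divided them. The copy of mt-Nd3, Gm28438, held 62.6% of its pair and differs from it at 1 of the 345 bases that both have, T3C, with positions counted from 1 at the 5′ end of the transcript and mt-Nd3 named first. The first 33 bases of both transcripts (GENCODE M21) are shown because this single base, in capitals, is the only mismatch over those bases, beside 3 further bases of mt-Nd3, which is 348 bases long.
mt-Nd3: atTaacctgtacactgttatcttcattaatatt
Gm28438: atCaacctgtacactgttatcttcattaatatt
The copies together had medians of 3743, 2791 and 9697 CPM in WT CX at the 3 periods. With the counts of the copies added to the mitochondrial genes, a choice made after seeing the data, the mean log2 ratio in WT CX was 0.73 at E17.5, 0.69 at P7 and 1.69 at P35 (SD 0.10, 0.25 and 0.15). The difference between P7 and E17.5 moved from 0.26 to −0.04 in CX, from 0.11 to −0.08 in HIP and from −0.22 to −0.47 in CB, whereas that between P35 and P7 was 0.99, 0.94 and 1.15 against 0.80, 0.78 and 1.0 without the copies.

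In 7 libraries the mt-Nd5 level was over 2 times the median of the group. They were E17.5 CX WT replicate 3, E17.5 HIP WT replicates 1 and 6, P7 CX WT replicate 4, P7 HIP Cul3+/- replicate 3 and P35 CB WT replicates 3 and 5. Against the median of the other libraries of their groups they held 2.69 to 6.58 times the mt-Nd5 level, 2.3 to 5.07 times the mt-Nd4 level and 1.99 to 5.34 times the mt-Nd2 level, but 0.827 to 1.11 times the mt-Co1 level. The 2 mitochondrial rRNAs were at 1.04 to 2.56 times and the nuclear sum at 0.75 to 0.967 times the median of the others. These libraries were kept, and the counts and medians of members that rest on them are also given without them, a choice made after seeing the data. Without them the group medians of WT mice were 6209 CPM for the nuclear and 6345 CPM for the mitochondrial sum in CX at E17.5, 6032 and 6960 CPM in HIP at E17.5, 8382 and 10170 CPM in CX at P7, and 11700 and 17120 CPM in CB at P35. The mean log2 ratio was then 0.04 (SD 0.093, n = 5), 0.15 (SD 0.11, n = 4), 0.23 (SD 0.16, n = 5) and 0.55 (SD 0.037, n = 4) in these groups. The difference of the ratio was 0.20 in CX and 0.26 in HIP from E17.5 to P7, and 0.91 in CX and 0.84 in CB from P7 to P35.

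Between E17.5 and P7 most nuclear members rose in all 3 regions of WT mice. In CX 62 of 81 members tested rose and 1 fell at an adjusted p under 0.1 in edgeR's quasi-likelihood test, where 41.3% of all 18620 genes tested rose and 40.6% fell, and the median log2 fold change of the members was 0.36 against 0.01 over all genes. In HIP 75 of 81 rose and 1 fell (38.9% of all genes rose and 39.1% fell), with a median of 0.63. In CB 80 of 81 rose and none fell (35.7% of all genes rose and 35.5% fell), with a median of 0.43. The Cul3+/- mice, which are other animals, shared 57 of the 62 that rose in CX, 73 of the 75 in HIP and 78 of the 80 in CB (42.0%, 40.1% and 37.6% of all genes rose in them). Without the libraries of high mt-Nd5, 67, 73 and 80 members rose, with medians of 0.38, 0.51 and 0.42.

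Between P7 and P35 fewer nuclear members rose and by less. In CX 41 of 81 rose and 4 fell (33.2% of all genes rose and 34.5% fell), with a median of 0.19, and in HIP 47 rose and 2 fell (31.3% of all genes rose and 31.5% fell), with a median of 0.22. In CB 37 rose and 9 fell (40.0% of all genes rose and 39.4% fell), with a median of 0.10, so the share of members that rose was near that of all genes there. Leaving out P35 CB WT replicate 3 alone gave 46 that rose and 9 that fell, with a median of 0.19. In that fit 7499 of all 18881 genes rose and 7441 fell. The share of members that rose was then above that of all genes. In Cul3+/- mice 50, 57 and 67 members rose in CX, HIP and CB (37.4%, 31.8% and 39.6% of all genes), and 41 of 41, 47 of 47 and 36 of 37 members that rose in WT mice rose in them as well.

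**Figure D2:**
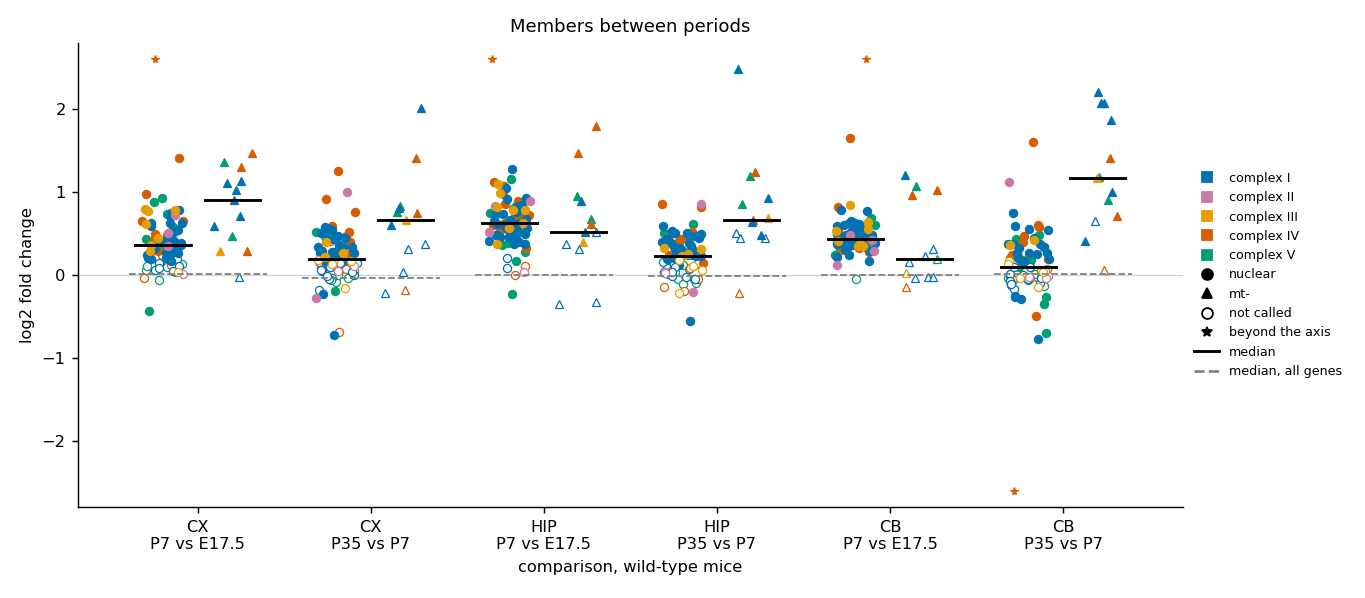
Log2 fold change of each member in the 6 steps between periods in WT mice (circles for nuclear and triangles for mitochondrial genes, coloured by complex, open where not called at an adjusted p of 0.1, a star for Cox6a2 where it lies beyond the axis), with a black bar at the median and a dashed line at the median of all genes. The nuclear medians are 0.36, 0.63 and 0.43 for P7 against E17.5 in CX, HIP and CB and 0.19, 0.22 and 0.10 for P35 against P7, where the mitochondrial medians are 0.66, 0.66 and 1.17.

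Complex I, which takes electrons from NADH, had 37 nuclear members tested. Of these, 30 rose in CX, 35 in HIP and 37 in CB between E17.5 and P7, and 24, 27 and 19 between P7 and P35. Of all genes, 41.3%, 38.9% and 35.7% rose in the first step and 33.2%, 31.3% and 40.0% in the second. Ndufa5, an accessory subunit of the peripheral arm, rose most of these genes in HIP, from between 17.4 and 26 CPM at E17.5 (median 20) to between 46.3 and 49.7 CPM at P7 (median 49.1), without overlap. The change of Ndufa5 on the log2 scale was 1.28 (SE 0.082, adjusted p = 2.56e-10) in HIP and 0.62 (SE 0.096) in CX. Ndufs7, one of the subunits that carry the iron-sulfur clusters, had 34.9 to 38.8 CPM (median 36.8) in CB at P7 and 64.2, 62.7, 61.1, 63.6 and 66.7 CPM in the 5 libraries of P35. All 5 lay above the P7 libraries, and Ndufs7 rose by 0.75 on the log2 scale (SE 0.049, adjusted p = 7.77e-11). Ndufa4l2, a paralog of Ndufa4 known as a target of hypoxia signalling, went the other way in all 3 regions, and fell by 0.72 in CX, 0.55 in HIP and 0.77 in CB on the log2 scale between P7 and P35 (SE 0.19, 0.15 and 0.16). Its level was low, with 0.615 to 1.33 CPM in CX at P35 and 1.17 to 1.85 CPM at P7, and these ranges overlapped. At the lower end of the called members of complex I stood Ndufa6 in CX at P7 (log2 fold change of 0.17), and Ndufv3, which fell by 0.23 in CX between P7 and P35.

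Complex II, succinate dehydrogenase, is also an enzyme of the TCA cycle, and its 4 subunits did not keep in step after P7. Sdha, the flavoprotein that oxidizes succinate, had 96.1 to 134 CPM (median 122) in CX at E17.5, 161 to 182 CPM (median 168) at P7, and 346, 381, 334, 346 and 342 CPM at P35. The 3 periods did not overlap, and the log2 fold changes of Sdha were 0.51 (SE 0.066) for P7 against E17.5 and 1.0 (SE 0.068, adjusted p = 5.25e-10) for P35 against P7. In HIP Sdha rose by 0.86 (SE 0.13) and in CB by 1.12 (SE 0.071) between P7 and P35, where it was among the 3 largest changes of all nuclear members called in each region. Sdhd, one of the membrane anchors of the enzyme, had 69.1 to 91.3 CPM (median 85.4) in CX at P7 and 76.3, 78.8, 61.6, 67.2 and 70 CPM at P35, with overlap. It fell by 0.28 in CX and 0.20 in HIP on the log2 scale (SE 0.079 and 0.071, adjusted p = 0.0055 and 0.0211) and had −0.03 (SE 0.071) in CB. Sdhb and Sdhc were not called in any region between P7 and P35. In Cul3+/- mice Sdha rose by 1.03, 0.89 and 1.1 in CX, HIP and CB.

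Complex III passes electrons to cytochrome c. Of its 8 nuclear members, 7, 8 and 8 rose in CX, HIP and CB between E17.5 and P7. Of all genes, 41.3%, 38.9% and 35.7% rose in that step. Between P7 and P35, 3, 4 and 2 of the 8 rose (33.2%, 31.3% and 40.0% of all genes). In the second step complex III was thus near the share over all genes in CX and below it in CB. Uqcr11, its smallest nuclear subunit, had 43.9 to 57.4 CPM (median 54.4) in CB at E17.5 and 83.9 to 98.1 CPM (median 95.9) at P7, without overlap (log2 fold change 0.85, SE 0.076, adjusted p = 2.02e-08).

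Complex IV, cytochrome c oxidase, has subunits with paired isoforms that are known to differ between tissues, and the strongest changes of the whole list were among them. Cox6a2, known as the heart and muscle isoform of subunit 6a, had 0 to 0.0841 CPM (median 0.0175) in WT CX at E17.5, 0.987 to 1.87 CPM (median 1.33) at P7 and 3.11, 3.78, 2.6, 3.88 and 3.18 CPM at P35. None of the 3 periods overlapped, with 6, 301 and 532 counts summed over the libraries, and its log2 fold changes in CX were 5.21 (SE 0.39, adjusted p = 9.69e-10) and 1.25 (SE 0.23, adjusted p = 0.000125). In HIP the medians of Cox6a2 were 0.0436, 0.73 and 1.47 CPM. In CB it had 3 counts in 6 libraries at E17.5 and 220 at P7, a ratio per library total of 71.6 (95% exact counting interval 24.2 to 350), which covers counting error only. At P35 the CB libraries had 0, 0.0788, 0.0357, 0.0282 and 0.0929 CPM, all below the lowest P7 library at 0.813 CPM, and the log2 fold change of Cox6a2 was −4.30 (SE 0.41, adjusted p = 1.69e-08). The same step in Cul3+/- mice gave −4.24 (SE 0.40). Per kb of exon, Cox6a2 had 1.96 CPM and its partner Cox6a1 had 210 CPM in CX at P7. Of 6 skeletal muscle markers, 1 had a mean of at least 1 CPM, and their sum was 0.7269 to 2.075 CPM in CX at E17.5, 6.804 to 9.097 at P7 and 11.07 to 12.16 at P35, against 2.07 to 2.772 CPM in CB at P7 and 2.428 to 2.817 at P35. The part of that sum in the result was not tested. A list of 6 parvalbumin interneuron markers summed to between 138.7 and 219 CPM, between 256.6 and 315.2 CPM and between 549.1 and 635.7 CPM in CX, and to between 295.1 and 384.4 CPM and between 1166 and 1335 CPM in CB at P7 and P35. Its part in the levels of Cox6a2 was not tested.

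Cox7a1, the muscle isoform of subunit 7a, rose in CB where Cox6a2 fell. It had 0.171 to 0.565 CPM (median 0.346) at E17.5, 0.952 to 1.45 CPM (median 1.17) at P7 and 3.93, 4.68, 2.96, 3.58 and 2.94 CPM at P35. The 3 periods did not overlap, and its log2 fold changes were 1.65 (SE 0.23) and 1.61 (SE 0.20, adjusted p = 8.51e-07). In CX and HIP Cox7a1 stayed at or below 1.35 CPM in all WT libraries, and rose by 0.75 in CX between P7 and P35 and by 1.12 in HIP between E17.5 and P7. Cox8a, a small subunit of the whole tissue, rose in both steps in each region, and in CX from between 81.7 and 105 CPM (median 90) to between 146 and 212 CPM (median 184) and to 281, 387, 374, 347 and 377 CPM, without overlap. Its log2 fold changes in CX were 0.98 (SE 0.098) and 0.91 (SE 0.10), and per kb of exon it had the highest level of all nuclear members in CX at P35, 604 CPM per kb. In CB at P35 the library of replicate 3 had 233 CPM of Cox8a against 330 to 357 CPM in the others, and it alone lay within the P7 range of 192 to 243 CPM. Cox6b2, known from testis, had a log2 fold change of 1.41 (SE 0.37) in CX between E17.5 and P7 on 35 and 115 counts summed over 6 libraries each, and in CB it rose by 0.45 and 0.61 in the steps to P7 and to P35. Cox8c had no count in any of 102 libraries, which allows up to 3 counts over all of them, and Cox8b and Cox7b2 were not tested in the steps between periods. Cox4i2, the isoform of subunit 4 linked to low oxygen, rose in CB between E17.5 and P7 (log2 fold change 0.82, SE 0.16).

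**Figure D3:**
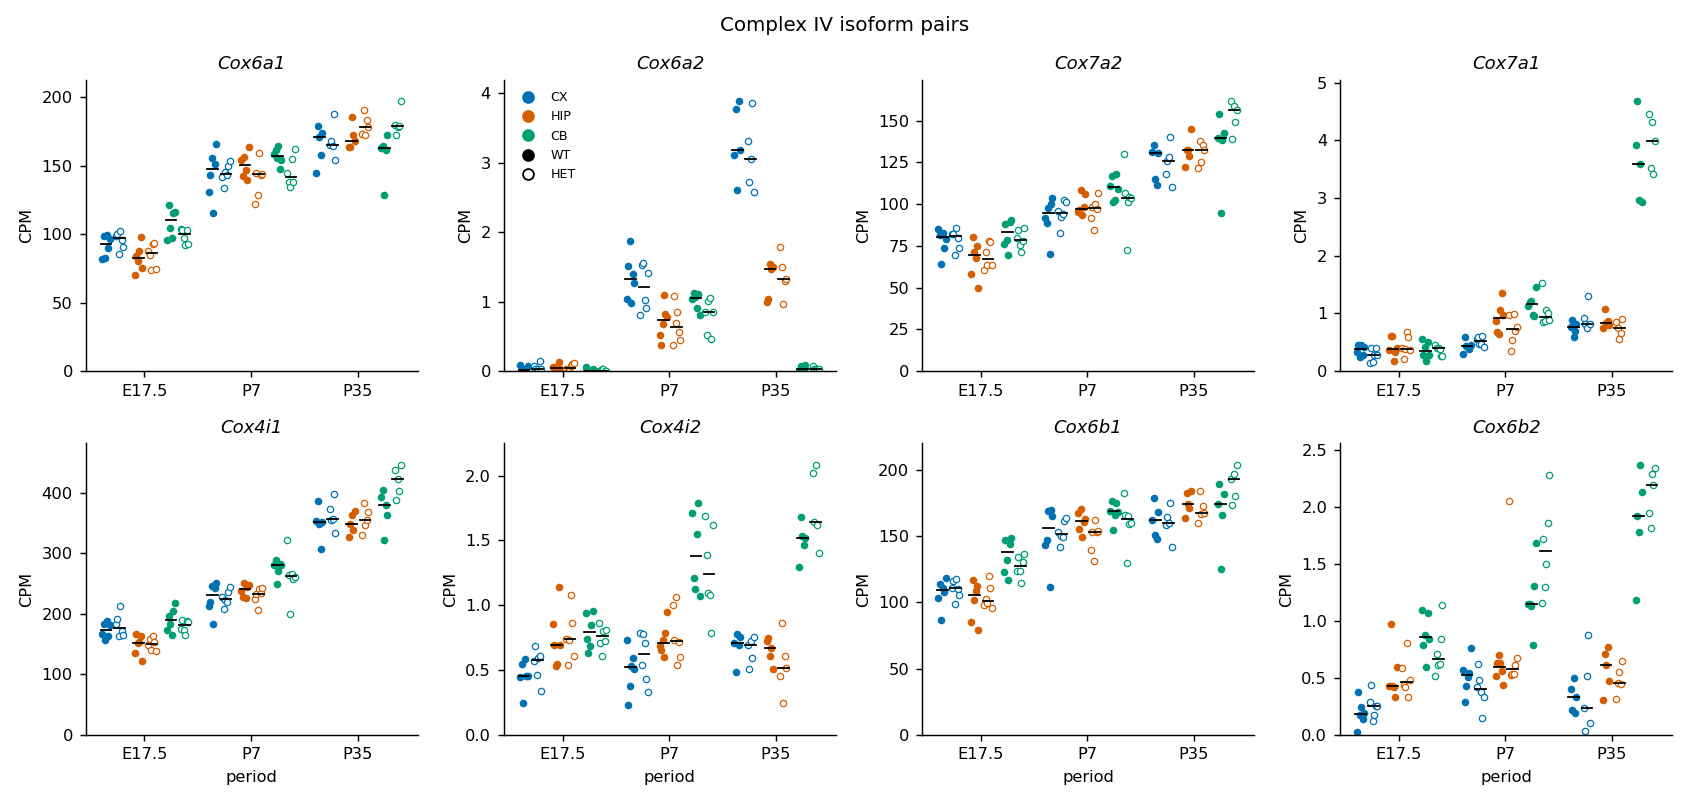
CPM per library of the paired isoforms of complex IV subunits 6a, 7a, 4 and 6b by period and region in WT and Cul3+/- mice (linear axis). Cox6a2 reaches medians of 3.18 CPM in WT CX and 1.47 CPM in HIP at P35 and falls back to 0.0357 CPM in CB, where Cox7a1 reaches 3.58 CPM.

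Complex V has 3 nuclear genes for one and the same protein, the c subunit of its rotor, and these genes did not move together. Atp5g1 had 63 to 83.7 CPM (median 73.8) in CX at E17.5 and 117 to 157 CPM (median 144) at P7, and rose by 0.93 in CX, 1.16 in HIP and 0.42 in CB on the log2 scale. Atp5g2 had 60.5 to 89.2 CPM (median 69.3) and 37 to 59.2 CPM (median 56.0) in CX, without overlap, and fell by 0.43 (SE 0.10, adjusted p = 0.000818). In CB it rose by 0.40 at P7 (SE 0.067), to between 81.2 and 108 CPM (median 96.4), and fell by 0.70 (SE 0.071, adjusted p = 4.08e-08) to 61.8, 65.8, 53, 61.1 and 61.9 CPM at P35. The P7 and P35 libraries of CB did not overlap. The counts of Atp5g1 and Atp5g2 were not whole in at least 97.2% of libraries, as was the case for 11 other nuclear members, and Cox7a2l, Cox6c and Uqcrb followed with 85.2%, 80.6% and 69.4%. An expected count that is not whole arises where reads are divided between genes, so reads shared with other genes may enter these levels. In the smaller changes of complex V, Atp5j and Atp5e stood at the lower end of the called genes in HIP at P7 (log2 fold changes of 0.17 and 0.28), and neither was called without the libraries of high mt-Nd5 (0.07 and 0.15).

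For the 13 mitochondrial members, which ones rose, and by how much, depended on the rows and libraries that were used. Between E17.5 and P7, 12 rose in CX, 8 in HIP and 4 in CB, against 41.3%, 38.9% and 35.7% of all genes, with medians of 0.90, 0.52 and 0.20, and none fell. The count in CB was thus near the share over all genes. Leaving out the libraries of high mt-Nd5, 11, 11 and 4 rose, with medians of 0.70, 0.74 and 0.19. Between P7 and P35, 8, 9 and 11 rose, against 33.2%, 31.3% and 40.0% of all genes, and none fell, with medians of 0.66, 0.66 and 1.17. With the copies added, none of the 13 was called in CB between E17.5 and P7, and without the libraries of high mt-Nd5 the medians between P7 and P35 were 0.77, 0.66 and 0.79, with 12, 11 and 11 members that rose.

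The gene mt-Co1, the catalytic subunit of complex IV, had the most counts of the mitochondrial members and its level depended little on both choices. In WT CX it had 3545 to 3982 CPM (median 3710) at E17.5, 3860 to 5256 CPM (median 4667) at P7 and 11500, 12050, 12950, 11850 and 14280 CPM at P35. The P35 libraries lay far above the others, while E17.5 and P7 overlapped. The log2 fold changes of mt-Co1 were 0.30 (SE 0.091) and 1.41 (SE 0.095, adjusted p = 4.7e-10) in CX, 0.61 (SE 0.11) and 1.24 (SE 0.11) in HIP, and −0.15 (SE 0.085, adjusted p = 0.141) and 1.41 (SE 0.090) in CB. With the copies added the step from P7 to P35 was 1.46, 1.27 and 1.43.

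By contrast, mt-Co2, mt-Co3 and mt-Atp6 changed with the treatment of the copies. In the rows as deposited mt-Co2 rose by 1.47 in CX between E17.5 and P7 (SE 0.22) and had −0.18 (SE 0.22) between P7 and P35, and with its copy it rose by 0.37 (SE 0.095) and 1.0 (SE 0.099). For mt-Co3 the 2 steps in CX were 1.3 and 0.74 as deposited and 0.21 and 1.41 with the copy. For mt-Atp6, a subunit of the proton channel of the synthase, they were 1.36 and 0.76 as deposited and 0.48 and 0.82 with the copy. In CB, mt-Co2 and mt-Co3 rose by 0.97 and 1.03 between E17.5 and P7 as deposited and had −0.00 and −0.06 with the copies. For mt-Nd3, the step from P7 to P35 in CX was 2.01 (SE 0.19) as deposited and 1.05 (SE 0.11) with the copy.

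Of the genes without a copy that holds a share of the counts, mt-Nd1 rose by 0.90, 0.89 and 0.16 between E17.5 and P7 in CX, HIP and CB, of which the value in CB did not pass the test, and by 0.60, 0.64 and 1.0 between P7 and P35, where the value in CB was 0.77 without the libraries of high mt-Nd5. The gene for cytochrome b, mt-Cytb, had 349 to 648 CPM at E17.5 and 468 to 875 CPM at P7 in CX, which overlapped, and 968 to 1157 CPM at P35, above both. Its rise of 0.29 in CX between E17.5 and P7 was not called without those libraries (0.24, adjusted p = 0.103 in edgeR). The small subunit gene mt-Atp8 had 0.47, 0.67 and 0.20 in the first step, of which the last was not called, and rose by 0.83, 0.86 and 1.18 in the second, with 0.83 in CB without the same libraries. The only member on the other strand, mt-Nd6, had −0.02, 0.52 and −0.03, of which the value in HIP was called, and rose by 0.81, 0.48 and 0.41 between P7 and P35. The counts of mt-Nd4l were few and its SE was 0.36 to 0.50 in these steps. Those of mt-Nd2, mt-Nd4 and mt-Nd5 followed the 7 libraries named above: in CB mt-Nd5 had 57.6 to 103 CPM at P7 and 127, 133, 878, 359 and 151 CPM at P35, and its log2 fold change was 2.07 (SE 0.39) with all libraries and 0.79 (SE 0.14) without replicates 3 and 5.

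**Figure D4:**
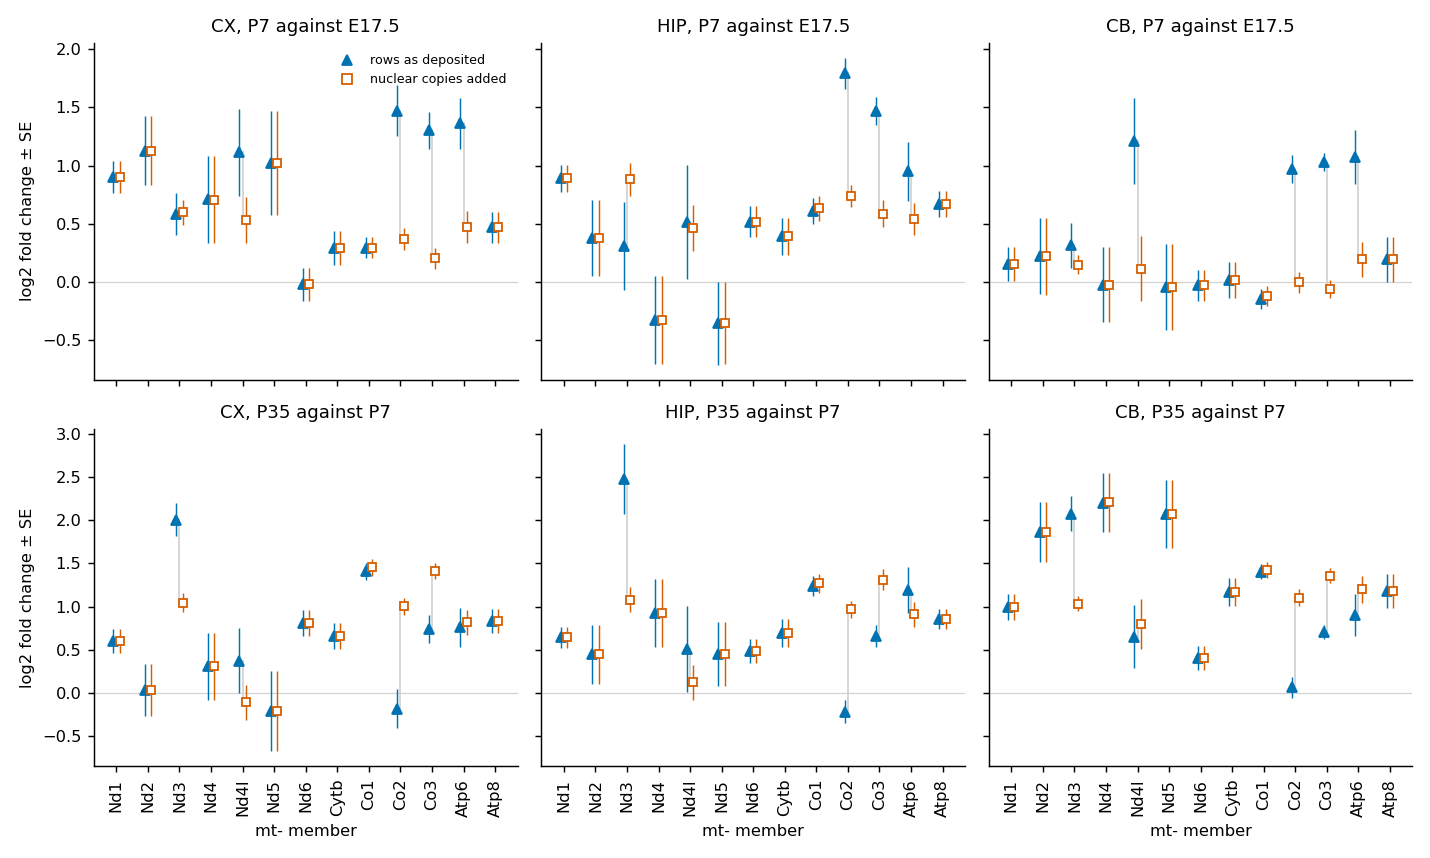
Log2 fold change (bars: SE) of the 13 mitochondrial members in the 6 steps between periods in WT mice, from the rows as deposited and with the counts of the nuclear copies added. In CX, mt-Co2 moves from 1.47 to 0.37 in the step from E17.5 to P7 and from −0.18 to 1.0 in the step from P7 to P35, while mt-Co1, mt-Cytb and mt-Nd6 move by little.

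The mitochondrial members also varied more between libraries of a group. The median SD of a member's log2 CPM was 0.0741 to 0.218 for the nuclear members over the 18 groups and 0.114 to 0.483 for the mitochondrial members, and in each group the second was the larger. The 2 mitochondrial rRNAs, which are no members and are a target of rRNA depletion in library preparation, had medians of 3797, 7749 and 38110 CPM in WT CX at the 3 periods. The part of depletion in the mitochondrial levels was not tested. Per kb of exon, mt-Co1 had 7800 CPM and mt-Co3 5220 CPM in CX at P35, against 29.3 to 1110 CPM per kb for the 11 other mitochondrial members. The nuclear members with the highest levels after Cox8a were Atp5a1 and Atp5b, the alpha and beta subunits of the synthase, with 278 and 259 CPM per kb, which were picked out after their values were seen.

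Since the nuclear members rose together at P7, their promoters are shown by the motifs of 4 factors known to act on genes of this pathway. Of 84 nuclear members, 68 matched a promoter in RefSeq by symbol or an older symbol (GRCm38.p6, 250 bases before to 50 after the start of the gene). The NRF1 motif GCGCATGCG was found in 8 of these (11.8%, against 1.95% of all 27025 genes), the ETS motif ACCGGAAG of GABPA in 6 (8.82% against 2.6%), the ERR motif TCAAGGTCA in 2 (2.94% against 0.466%) and the YY1 motif AAGATGGCG in 7 (10.3% against 1.64%), with both strands searched. In all, 22 members held at least 1 of them, among them Cox6a1, Atp5g2, Ndufa8 and Uqcr11 with the NRF1 motif and Ndufb6 with the ETS motif. In Uqcrc1 the NRF1 motif was found on both strands at overlapping positions, and no other motifs overlapped in the promoters shown. A match is a description of the letters and not a site that was shown to be bound. The promoters of Uqcrc1, a core subunit of complex III, of Sdhd, which alone held 2 of the motifs, and of Ndufs7 are printed from 5′ to 3′ on the strand of the gene, with matches on either strand in capitals. They lie at chr9:108936398-108936697 on the plus strand, chr9:50603800-50604099 on the minus strand and chr10:80249199-80249498 on the plus strand.
Uqcrc1: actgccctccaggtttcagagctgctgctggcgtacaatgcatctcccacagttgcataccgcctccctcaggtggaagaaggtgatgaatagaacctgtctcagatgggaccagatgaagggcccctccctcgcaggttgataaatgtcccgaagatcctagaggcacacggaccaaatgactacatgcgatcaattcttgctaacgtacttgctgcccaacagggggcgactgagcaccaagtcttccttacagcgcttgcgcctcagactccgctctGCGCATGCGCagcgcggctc
Sdhd: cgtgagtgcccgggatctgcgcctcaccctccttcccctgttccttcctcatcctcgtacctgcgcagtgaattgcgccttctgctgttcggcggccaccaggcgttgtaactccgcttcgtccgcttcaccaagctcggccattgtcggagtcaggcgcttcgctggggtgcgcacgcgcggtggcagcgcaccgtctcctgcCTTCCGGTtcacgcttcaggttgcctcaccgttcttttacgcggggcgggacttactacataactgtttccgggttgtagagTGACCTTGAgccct
Ndufs7: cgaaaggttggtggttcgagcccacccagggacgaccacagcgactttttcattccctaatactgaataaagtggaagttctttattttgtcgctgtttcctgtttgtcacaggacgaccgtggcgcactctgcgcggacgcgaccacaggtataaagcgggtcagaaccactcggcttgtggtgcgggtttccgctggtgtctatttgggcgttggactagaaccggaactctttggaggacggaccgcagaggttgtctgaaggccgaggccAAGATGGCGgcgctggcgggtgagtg
Among these 3, Sdhd fell and Ndufs7 rose in CX between P7 and P35, and both rose between E17.5 and P7 (log2 fold changes of 0.73 and 0.37).

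Between regions of the same WT mice, CB had more nuclear and, at P7, less mitochondrial RNA of the pathway than CX. At E17.5, 40 of 80 nuclear members were higher in CB and none lower (31.3% of all genes were higher and 30.3% lower), with a median log2 difference of 0.19, and 1 mitochondrial member, mt-Nd1, was higher by 0.31. At P7, 64 of 81 nuclear members were higher and 4 lower (44.1% of all genes were higher), with a median of 0.26, while 11 of 13 mitochondrial members were lower and none higher (38.8% of all genes were lower), with a median of −0.40. Without the libraries of high mt-Nd5 these were 58 and 6 nuclear members, and again 11 mitochondrial ones, with a median of −0.36. In Cul3+/- mice 9 of those 11 were also lower (36.5% of all genes were lower). At P35, 44 nuclear members were higher in CB and 9 lower (38.9% of all genes were higher and 36.5% lower), and 2 mitochondrial members were higher and 4 lower. Both mitochondrial counts were below these shares of all genes. Without the mouse of P35 CB WT replicate 3, whose libraries of all regions were left out, 57 nuclear members were higher and 8 lower. Of all 18364 genes in that fit, 7143 were higher and 6739 lower. Of the mitochondrial members 7 were then lower and none higher, with a median of −0.28 in place of −0.11.

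HIP and CX differed less. At E17.5, 3 of 80 nuclear members were higher and 9 lower in HIP (24.2% of all genes were higher and 22.3% lower), and without the libraries of high mt-Nd5 5 were higher and 1 lower. No mitochondrial member was called there in edgeR at an adjusted p of 0.1, and DESeq2 called 1, and among all genes 8407 had an unadjusted p under 0.05. At P7, 32 of 81 nuclear members were higher and 1 lower (27.8% of all genes were higher and 29.2% lower), of which 5 of 32 were also higher in Cul3+/- mice (26.5% of all genes were higher). At P35, 36 were higher and 1 lower (25.5% of all genes were higher and 25.9% lower), with a median of 0.13, and 32 of 36 were also higher in Cul3+/- mice (30.5% of all genes were higher).

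Among the members of complex I, Ndufb7, Ndufs6 and Ndufs4 were lower in HIP than in CX at E17.5 by −0.31, −0.29 and −0.27 and Ndufc2 higher by 0.29. With those of high mt-Nd5 left out, none of these 3 was called lower (−0.24, −0.26 and −0.16, adjusted p = 0.137, 0.106 and 0.127 in edgeR). Ndufa5 was higher in HIP by 0.33 at P7 and by 0.31 at P35. Atp5mpl, a small subunit of complex V, was also higher by 0.31 at P35.

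The largest regional differences were again in the isoforms of complex IV. At P35 Cox6a2 was lower in CB than in CX by a log2 difference of −6.01 (SE 0.31, adjusted p = 2.34e-09), on 8 and 532 counts, and lower in HIP by −1.36 (SE 0.20), where it had 0.998, 1.04, 1.55, 1.47 and 1.5 CPM. The 3 regions did not overlap. Cox7a1 was higher in CB by 2.21 (SE 0.13, adjusted p = 8.94e-09), with a lowest library at 2.94 CPM against a highest of 0.884 CPM in CX. Cox6b2 was higher in CB by 2.26, 1.21 and 2.43 and Cox4i2 by 0.80, 1.5 and 1.1 at the 3 periods. At P35 Cox4i2 had 1.3, 1.68, 1.54, 1.47 and 1.52 CPM in CB and 0.708, 0.482, 0.775, 0.692 and 0.757 CPM in CX, without overlap. A list of 9 markers of pericytes and smooth muscle, cells known for Cox4i2, summed to between 254.3 and 281.1 CPM in CB and between 207.6 and 250.6 CPM in CX at P35, and its part in the difference was not tested. In the other direction Cox7a2l, a factor of supercomplex assembly, and Ndufa8 were lower in CB at P35 by −0.41 and −0.25 (SE 0.056 and 0.064), and Atp5s and Ndufb6 at P7 by −0.41 and −0.20. Cox8a was higher in CB at E17.5 by 0.75 (SE 0.086).

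Whether a step between periods differed between regions was tested as an interaction in WT mice with the mouse as a block, a test chosen after seeing the data. From E17.5 to P7 the change was larger in HIP than in CX for 38 of 81 nuclear members and smaller for 1 (38.6% of all 20298 genes were called), and for 2 mitochondrial members. Without the libraries of high mt-Nd5, 9 nuclear members had larger and 2 smaller changes (3276 and 3095 of all 20686 genes). In the same step CB differed from CX by 26 larger and 12 smaller changes of nuclear members (69.6% of all genes were called). It had 4 smaller changes of mitochondrial members, which were 8 without those libraries, where 7270 of all genes had smaller changes. From P7 to P35 HIP differed from CX in 1 nuclear member (17.6% of all genes were called), and CB by 8 larger and 19 smaller changes (61.0% of all genes were called), with 5 larger and 1 smaller changes among the mitochondrial members. Without those libraries HIP differed by 5 larger and 1 smaller changes of nuclear members (1806 and 2455 of all 20686 genes). CB then differed by 2 larger and no smaller changes of mitochondrial members (5458 larger and 6233 smaller among all genes). In CB, and in HIP from P7 to P35, the share of nuclear members called was below that of all genes. Without the libraries of high mt-Nd5 it was below that share in HIP from E17.5 to P7 as well.

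**Figure D5:**
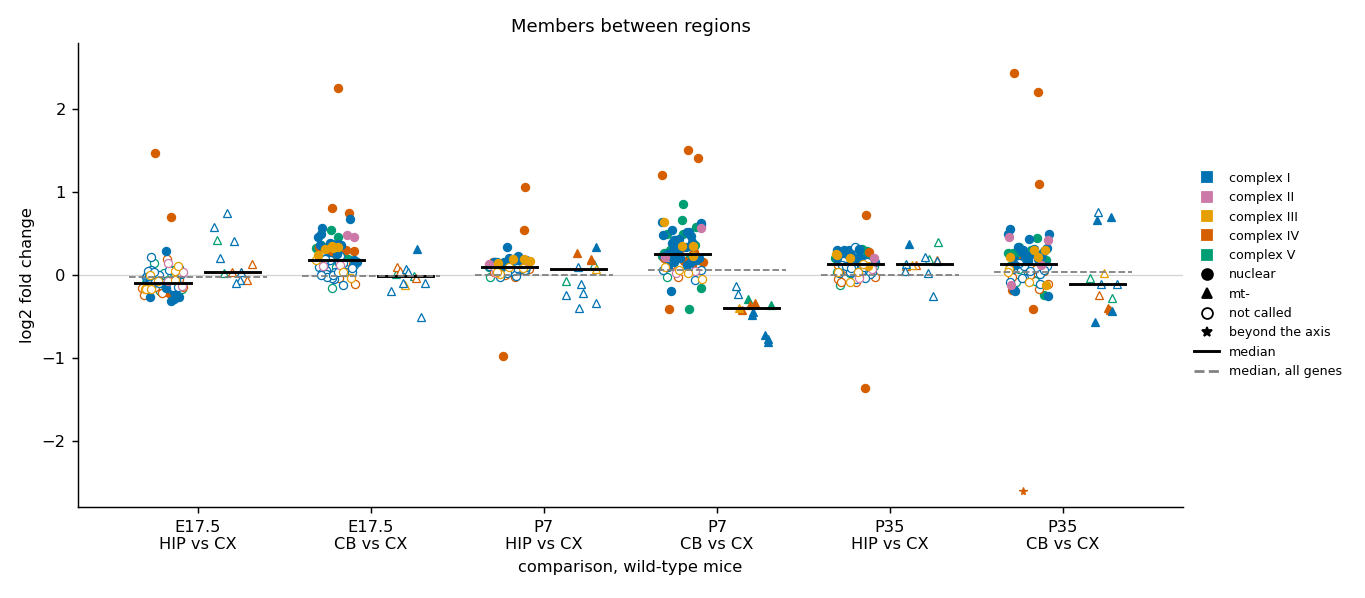
Log2 difference of each member between CB or HIP and CX of the same WT mice at the 3 periods (circles for nuclear and triangles for mitochondrial genes, coloured by complex, open where not called), with a black bar at the median and a dashed line at the median of all genes. At P7 the nuclear median for CB is 0.26 and the mitochondrial median −0.40.

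Other lists of the pathway and of energy metabolism were counted in the same fits. Of all genes, 41.3% rose and 40.6% fell in CX and 38.9% and 39.1% in HIP between E17.5 and P7. Between P7 and P35, 33.2% rose and 34.5% fell in CX. In CB against CX, 44.1% of all genes were higher and 38.8% lower at P7, and 38.9% and 36.5% at P35. Of 8 further subunits and electron carriers that the symbol rule does not take, 6 rose and none fell in CX between E17.5 and P7 (median log2 fold change 0.60), and 5 rose and 1 fell between P7 and P35. Of 46 assembly factors, which build the complexes and are not part of them, 13 rose and 17 fell in CX between E17.5 and P7, with a median log2 fold change of 0.01, and 27 rose and 6 fell in HIP. Of 24 genes for the upkeep and transcription of mitochondrial DNA, 2 rose and 22 fell in CX, with a median of −0.57, and 3 rose and 19 fell in HIP. In CB at P7, 19 of these 24 were higher and 4 lower than in CX. Of 17 genes of the TCA cycle, 15 rose and 2 fell in CX and 15 rose and 1 fell in HIP between E17.5 and P7. The glycolysis list, with 18 rows, had 14 that rose and 4 that fell in CX in that step, and at P35 it had 4 that were higher and 12 that were lower in CB than in CX, with a median of −0.27. Of 14 regulators of mitochondrial biogenesis, 6 rose and 6 fell in CX between E17.5 and P7, and 11 were higher and none lower in CB than in CX at P35. In CX between E17.5 and P7 the counts of assembly factors and of these regulators were near or below the shares over all genes.

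The markers of cell types moved with these steps as well. In WT CX, 8 neuron markers summed to between 672.5 and 1031 CPM at E17.5, between 3157 and 4120 CPM at P7 and between 6768 and 7505 CPM at P35. The 8 markers of progenitors and dividing cells summed to between 527.7 and 1312 CPM, between 116.4 and 167.2 CPM and between 69.89 and 79.68 CPM, and 6 oligodendrocyte markers to between 29.88 and 42.26 CPM, between 135.4 and 185.3 CPM and between 3610 and 4681 CPM. In CB the neuron markers summed to between 973.5 and 1171 CPM at E17.5 and between 1278 and 1454 CPM at P7. Their part in the changes of the members was not tested.

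The study asks what loss of 1 copy of Cul3 does to the brain, and the members were compared between genotypes in each of the 9 groups. No member was called by edgeR's quasi-likelihood test in any of them, where Cul3 was the only gene called of all genes tested. That is 0.00603%, 0.00586% and 0.00568% of the genes tested in CX, HIP and CB at E17.5, 0.00566%, 0.00563% and 0.0057% at P7, and 0.00569%, 0.00584% and 0.00584% at P35. Among all genes, between 277 of 16594 in CX at E17.5 and 2460 of 17110 in CB at P35 had an unadjusted p under 0.05. Of the nuclear members at most 5 did so in each group other than CB at P35, where 20 of 80 did, all with higher levels in Cul3+/- mice. There the median log2 fold change of the nuclear members was 0.16 and ranged from −0.02 to 0.25, with a median SE of 0.081, and that of the mitochondrial members was −0.28. Without WT replicates 3 and 5, which stand apart, the medians were 0.08 and 0.00. The count of 20 is not given without these replicates. DESeq2 called 1 nuclear member in CB at P35 (1.27% of all genes were called by it), Ndufb7 (log2 fold change 0.18, adjusted p = 0.293 in edgeR). It is an accessory subunit of complex I. RUVs, which estimates unwanted variation from replicates, called 1 in CB at E17.5, Cox5a (−0.23, SE 0.052, adjusted p = 0.988 in edgeR), and 1 in CB at P7, Ndufb4, a gene with close copies that is named here after its values were seen. The number of all genes that RUVs called is not given here, so the calls of Cox5a and Ndufb4 cannot be set against it. The paper, which used RUVs with edgeR at a threshold of 0.1, reports many genes beside Cul3 that differed between genotypes. The likelihood ratio test called no member in any group.

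In the other 8 groups the median of the nuclear members lay between −0.06 and 0.06 and their median SE between 0.046 and 0.11. The mitochondrial medians ran from −0.28 in HIP at E17.5 to 0.02 in CB at E17.5. The mitochondrial member with the smallest p over all 9 groups was mt-Atp8 in HIP at P35 (log2 fold change −0.20, SE 0.062, adjusted p = 0.796). On simulated counts, genes were changed by 0.5 on the log2 scale. They were recovered in 48% of cases in CX at E17.5 and in 51.0% in CB at P35. Of those changed by 0.25, none and 6.12% were recovered. The changed genes were drawn at random from all genes tested, so these values do not give the share of members that would be detected.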

How the data were processed

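RNA was sequenced from 108 libraries of 36 mice, each mouse giving 3 regions. Per the submitters' processing notes, the authors trimmed reads with Cutadapt 1.14, aligned them with STAR 2.5.3a to the GRCm38.p5 (mm10) genome and estimated counts per gene with RSEM 1.3. The deposited values are expected counts, of which 5.76% were not whole, and they were rounded for the tests. Totals ran from 15126113 to 44411282 counts per library (median 32663960), which sets the precision of low genes. Of 53465 rows, 53360 matched GENCODE M21 by gene identifier, from which symbols, classes, coordinates and exon lengths were taken. The 6 libraries of 2 adult mice were left out of all comparisons other than an alternative that kept them as labelled. The labels and the study's sample table give opposite genotypes for them. No column was without a sample.

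Counts were tested in R 4.3.3 with edgeR 4.0.16 (quasi-likelihood test, TMM scaling, filterByExpr at its settings of 10 counts and 15 in total) on all genes, with Benjamini-Hochberg adjustment and a threshold of 0.1. Periods were compared within a region and genotype, regions within a period and genotype with the mouse as a block, and genotypes within a period and region. SEs were taken from the fold change and its F statistic, as the size of the one over the root of the other. CPM were scaled by TMM over all libraries, so that no level was set across separate normalizations. Replicates were separate mice. At E17.5 and P7 the names of WT and Cul3+/- mice of equal replicate number share a code. The labels do not state its meaning, and the main comparisons of genotypes used no block. Whether equal replicate numbers pair samples was read from how their deviations from the group means correlate. In CX at E17.5 all 6 pairs of WT and Cul3+/- mice were over 0.1 (0.113 to 0.759, median 0.474, against −0.0939 for other pairs). In the other genotype and period comparisons not every pair was over 0.1. The same mice under the same numbers gave HIP and CB at E17.5. The medians there were 0.335 and 0.292, against −0.0297 and −0.0167 for other pairs, so a pairing at E17.5 cannot be limited to CX.

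The alternatives were DESeq2 1.42.0, a likelihood ratio test, RUVs with 3 factors, upper-quartile scaling, library sizes without mitochondrial genes, no filter, a replicate block, each replicate left out, and those named as chosen after seeing the data. Further ones were the level of Xist as a covariate between genotypes and the adult mice of disputed genotype kept as labelled. The scripts were tested on simulated data. The members, the gene lists and the tests were chosen with earlier results of these data known. Genes were named by this rule: Cul3, all mitochondrial members, the isoforms and paralogs, the Sdh genes, the 3 highest and 3 lowest nuclear members called in each comparison of periods or regions in WT mice, and the member with the smallest p of each genome in each comparison of genotypes. Exceptions are said to have been picked after their values were seen. One member that the rule names is not reported here.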

Additional observations from a re-analysis of the deposited data

Results flagged for a closer look

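Single libraries stood apart in 6 of 54 group values examined (summed nuclear CPM, summed mitochondrial CPM and their log2 ratio in 18 groups), where the gap of the highest or lowest library to its nearest neighbour, over the range of the group, was above Dixon's 95% critical value. Chance gives about 1 in 20 for each value, but the values are not independent, since the ratio is made of both sums and 3 of the 6 belong to 1 library. The summed mitochondrial level of E17.5 HIP WT replicate 5 was 6070 CPM against 6910 to 7340 CPM in the others. The log2 ratio of mitochondrial to nuclear sum was −0.45 in E17.5 CB Cul3+/- replicate 3 against −0.00811 to 0.16, and −0.66 in P7 HIP Cul3+/- replicate 4 against 0.458 to 0.921. In P35 CB WT replicate 3 all 3 values stood apart, with a nuclear sum of 8850 CPM against 11300 to 12200 CPM, a mitochondrial sum of 20900 CPM against 16800 to 17600 CPM and a log2 ratio of 1.24 against 0.507 to 0.634.

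In the interaction test of the steps between regions, 39 of 81 nuclear and 2 of 13 mitochondrial members differed between HIP and CX from E17.5 to P7, against 38.6% of all genes, and 38 nuclear and 4 mitochondrial members between CB and CX, against 69.6%. From P7 to P35, 1 nuclear member differed between HIP and CX, against 17.6% of all genes, and 27 nuclear and 6 mitochondrial members between CB and CX, against 61.0%. The nuclear share was thus below that of all genes other than in the first of these tests. Without the libraries of high mt-Nd5, 11, 46, 6 and 25 nuclear members differed in these tests in the same order. Of all 20686 genes, 3276 had larger and 3095 smaller changes in the first of them, and 6971 and 7270 in the second. In the third they were 1806 and 2455, and in the fourth 5458 and 6233. The nuclear share was then below that of all genes in each of these tests.

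Outside the rows of the members, Gm28661, a nuclear copy of mt-Co2, held a mean of 51270 counts per library against 14440 on mt-Co2.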

How the results depend on the processing

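Of 848 values that summarise a comparison, 809 were rated the same under the alternatives other than leaving out replicates. Of the rest, 5 were counts of members called that became smaller and 20 were such counts that became larger. The other 14, medians or differences of the ratio, moved. Of 2399 values of single members, 2291 kept their direction and side of the threshold, 94 lost the call, 2 gained it and 12 reversed. The scaling, filter and test alternatives changed few counts: in HIP against CX at E17.5, 1 mitochondrial member was called by DESeq2, with upper-quartile scaling or with library sizes without mitochondrial genes; at P35, 2 were called by DESeq2 or with no filter; at P7, 53 nuclear members were called with upper-quartile scaling; DESeq2 called 2 mitochondrial members in CB against CX at E17.5 and 1 nuclear member between genotypes in CB at P35, and RUVs called 1 in CB at E17.5 and 1 at P7.

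With the copies added, the difference of the log2 ratio between P7 and E17.5 was −0.037 in CX and −0.468 in CB, the mitochondrial median in CX was 0.476, 0 members were called in CB in that step (mt-Co2 −0.002, mt-Co3 −0.058), 5 were called in HIP against CX at P7 and 3 at P35, and between genotypes mt-Nd3 was 0.092 in CX at E17.5 and mt-Nd4l 0.004 in HIP at P7. Without mt-Co1 the ratio differences were 0.637 and 0.396 in CX, 0.479 in HIP from P7 to P35 and 0.192 in CB from E17.5 to P7. Without the libraries of high mt-Nd5, the mitochondrial median was 0.794 in CB from P7 to P35 and 0.102 between genotypes in CX at E17.5, the calls in HIP against CX were 6 nuclear members at E17.5, 19 nuclear and 5 mitochondrial members at P7 and 6 mitochondrial members at P35, those in CB against CX were 3 mitochondrial members at E17.5 and 10 at P35 (mt-Nd2 −0.093, mt-Nd4 −0.096), and between genotypes mt-Nd5 was 0.094 in HIP at E17.5 and mt-Nd2 0.004 in CB at P35.

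In Cul3+/- mice the nuclear median was 0.377 (71 called) in CB and 0.293 in HIP from P7 to P35, and the mitochondrial median 0.905 in HIP from E17.5 to P7, where mt-Nd4l was −0.196 in CX. Between their regions, HIP against CX had 35 nuclear and 2 mitochondrial members called at E17.5, 9 and 1 at P7 (Ndufa11 −0.014) and 9 mitochondrial members at P35, and CB against CX had nuclear medians of 0.073 at E17.5 and 0.352 at P35 (Sdhb 0.025, mt-Nd3 0.056). The cause of these differences was not tested.

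Leaving out 1 replicate at a time, the mitochondrial median ran from 0.592 to 1.127 in CX from E17.5 to P7 and from −0.115 to 0.102 between genotypes in CX at E17.5. The members called in HIP against CX ran from 5 to 18 nuclear and 0 to 1 mitochondrial at E17.5, 18 to 37 and 3 to 5 at P7, and 22 to 43 and 0 to 6 at P35, and 0 to 1 mitochondrial members were called in CB against CX at E17.5. With the replicate block 0 summary values changed and 6 single calls did, among them Cul3 in CB at P35 (−0.73, call lost), Ndufa6 (0.17) and mt-Nd4 (0.64) in CX from E17.5 to P7, and without the block between regions 0 summary values changed. In CX at E17.5, where all pairs were over 0.1, the block called no member either. Depth limits the isoforms of few counts (Cox6a2, Cox6b2, Cox4i2), and the number of mice limits the comparison of genotypes.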
